A study of Homo sapiens with 8 samples.

Results

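A group of 259 cells carried the long noncoding RNA LINC00326 together with at least 2 of 7 further transcripts. The group was 0.593% of the 43693 cells in the deposited matrix (95% exact binomial interval 0.523% to 0.669%). That interval covers counting error only, and not the spread between the culture tags described below. Among the remaining cells, the share with 1 or more of a further transcript ran from 0.951% (DAPP1) to 11.8% (CPM). A cell was a member when its entry was at least 1 for LINC00326, at least 1 for 2 or more of 7 further genes (LINC01409, DAPP1, LINC01707, THORLNC, CPM, LINC01214 and LINC00862), and 0 for MKI67, a marker of cycling cells. These entries chose the members, so the levels of the 9 genes are descriptions and carry no test. No cell type name was attached to the group in advance, and none is given here. The levels of the fixed lists of cell type markers are given at the end.

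The study profiled neural cultures grown from H1, a human embryonic stem cell line, in 2-D and 3-D formats, with single-cell RNA sequencing by split-pool barcoding of fixed cells, to describe the makeup of the cultures and their responses to dopamine, cocaine and morphine. The 8 deposited samples are sublibraries of 1 pool and do not separate the conditions, so culture and treatment were read from the cell names, which the labels do not define. The names give 9 arrangements. 2DCocu (12 tags) and 3DFusi (10 tags) carry the treatment tags AcCoc, AcMor and Vehic, 2DMono and 3DMono (6 tags each) carry AcDop, AcMor and Vehic, and 2DProto2Fjo, 2DProto3Wu, 2DProto4Nic, 3DProto1For and 3DProto2Xia (2 to 3 tags each) carry no treatment tag. Every tag comes from the same H1 line. Whether numbered tags are separate cultures is not stated, so p-values measure the spread between tags, which may be technical. The 46 tags held 317 to 1959 cells each, and the cells' totals ranged from 3375 to 511102 estimated counts with a median of 12776.

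Long noncoding RNAs such as LINC00326 do not encode proteins, and many are made in few cells at low levels. DAPP1 is an adaptor protein that binds phosphoinositides and is best known downstream of the B cell receptor, CPM is carboxypeptidase M, a membrane-anchored peptidase, and THORLNC is a noncoding RNA best known from testis and tumours. In damaged or stressed cells the transcription factor p53 switches on a set of targets, among them CDKN1A, an inhibitor of the cell cycle, and MDM2, which feeds back to destroy p53. Those targets are described here because they were among the leading genes of the cells around the members.

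In GENCODE v29 on GRCh38, LINC00326 lies on the plus strand of chromosome 6 from 133088080 to 133106578 and overlaps no other annotated gene. DAPP1 lies on the plus strand of chromosome 4 from 99816833 to 99870154, THORLNC on the minus strand of chromosome 2 from 118132128 to 118222250, and LINC01707 on the plus strand of chromosome 1 from 69055898 to 69185003. CPM, on the minus strand of chromosome 12 from 68842197 to 68971570, overlaps the end of MDM2 on the opposite strand over 8490 bases. No source used here states if the authors' counting used strand, so CPM reads and MDM2 reads cannot be told apart in that stretch. The same limit holds for LINC01409 and LINC00862. A gene on the opposite strand overlaps LINC01409 over all its 31291 bases, and another overlaps LINC00862 over 67513 bases.

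Promoter windows, each the 250 bases before the gene's start in RefSeq (GRCh38.p14), show the sequence next to one gene of the rule and next to 2 targets of p53 whose levels are given below. Capitals mark matches to the p53 half-site decamer. Those windows are DAPP1 at chr4:99816577-99816826 on the plus strand, PURPL at chr5:27472042-27472291 on the plus strand and FDXR at chr17:74872995-74873244 on the minus strand.
DAPP1: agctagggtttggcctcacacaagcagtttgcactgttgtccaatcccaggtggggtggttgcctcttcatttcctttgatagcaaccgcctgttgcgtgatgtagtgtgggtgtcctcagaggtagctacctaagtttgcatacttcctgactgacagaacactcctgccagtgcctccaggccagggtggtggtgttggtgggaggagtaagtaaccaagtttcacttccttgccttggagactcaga
PURPL: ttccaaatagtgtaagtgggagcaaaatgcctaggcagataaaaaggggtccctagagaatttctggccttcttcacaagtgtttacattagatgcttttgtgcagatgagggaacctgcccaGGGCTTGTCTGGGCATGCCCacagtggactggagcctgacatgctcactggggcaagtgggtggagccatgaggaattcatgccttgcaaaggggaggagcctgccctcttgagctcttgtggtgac
FDXR: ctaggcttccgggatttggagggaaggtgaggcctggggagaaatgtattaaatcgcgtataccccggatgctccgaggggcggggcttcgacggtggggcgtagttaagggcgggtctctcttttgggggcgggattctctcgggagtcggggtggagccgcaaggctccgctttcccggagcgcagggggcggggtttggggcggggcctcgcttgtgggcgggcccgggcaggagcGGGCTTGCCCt
PURPL held 2 decamers side by side and FDXR 1. Of all 35116 promoter windows of this length in the table, 5.57% held at least 1 such decamer, which reads alike on both strands. None of the 9 windows found for 7 of the rule's genes held it, and 5 of 35 windows for 23 listed p53 target genes did. Windows on the chromosome that holds TNFRSF10B, also a listed target, were left out of these counts, a step not applied to the 35116. A match is only a run of letters, and no match says only that those letters are not in that window.

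LINC00326 was at 1 or more in 872 cells, of which 317 held at least 2 of the 7 further genes, and 58 of those were left out for MKI67. Beside LINC00326, members most often held CPM (198 of 259, 76.4%), THORLNC (129, 49.8%), DAPP1 (93, 35.9%), LINC01214 (91, 35.1%) and LINC00862 (80, 30.9%). LINC01707 (55, 21.2%) and LINC01409 (48, 18.5%) were the rarest. The commonest pair was THORLNC with CPM, in 85 members, followed by DAPP1 with CPM in 71. One member held all 7. The summed LINC01409 level rested on single cells: 1 cell gave 61.6% of the members' LINC01409 counts. At the edge of the rule, 199 cells with LINC00326 and no MKI67 held 1 of the 7 genes, and 138 members held exactly 2. Their median LINC00326 entries were 1.02 and 3.01.

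When all cells were clustered without the rule's genes, 142 members (54.8%, 95% exact binomial interval 48.5% to 61.0%) fell into 1 of 40 clusters, cluster 15. The interval covers counting error only, and not the spread between tags. Cluster 15 held 1251 cells, 2.86% of the total. The other 117 members were spread over 27 clusters, with at most 9 in any of them, and 12 clusters held none. Members made up 11.4% of cluster 15 and 0.276% of the cells outside it. LINC00326 was at 1 or more in 20.3% of the cells of cluster 15, against 0% to 3.69% of the cells of any other cluster. After each cell was thinned to 5000 counts, which left out 1948 shallower cells, these shares were 16.5% and at most 1.49%. The part of free RNA in the low shares elsewhere was not tested. Of the 95 cells that met the rule after thinning, 76 (80%) lay in cluster 15. Without thinning, CPM was found in 78.9% of members inside the cluster, 73.5% of members outside and 39.5% of the cluster's other cells. In that order THORLNC had 52.8%, 46.2% and 13.8%, and DAPP1 47.2%, 22.2% and 7.75%. LINC01214 had 40.1%, 29.1% and 6.94%, and LINC00862 36.6%, 23.9% and 6.31%. LINC01707 had 12.7%, 31.6% and 20.7%, and LINC01409 9.15%, 29.9% and 9.83%, so without thinning both were commonest in members outside. After thinning, LINC01707 had 10.9%, 15.4% and 17.7% in the same order, and was commonest in the cluster's other cells. LINC01409 then had 7.30%, 8.55% and 7.70%. Because clusters are drawn from the cells' own genes, genes that set cluster 15 apart are described without a test.

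**Figure D1:**
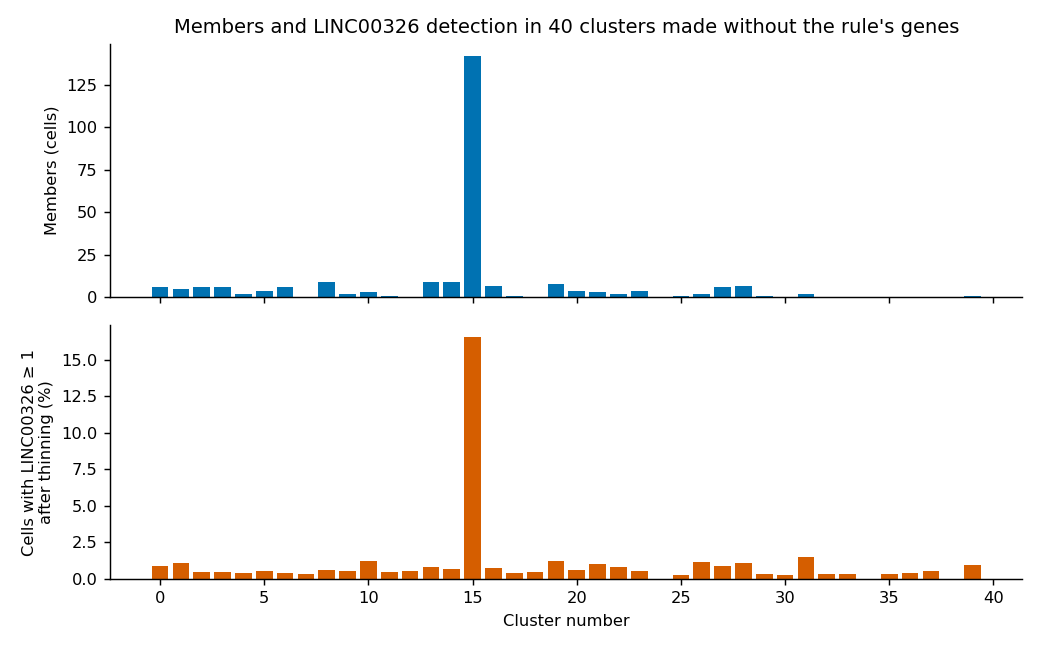
Members (top, number of cells) and the share of cells with LINC00326 at 1 or more after thinning to 5000 counts (bottom, percent) in each of 40 clusters, numbered by size on the horizontal axis. Cluster 15 holds 142 members and 16.5% LINC00326 cells, and no other cluster exceeds 9 members or 1.49%.

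The members inside and outside cluster 15 differed in depth. Members inside had a median total of 12333 counts, close to the 12850 of non-members outside the cluster. Members outside had a median of 33891, and 89 of the 117 lay among the cells above 20525 counts, the deepest of 4 equal groups of cells, where 0.827% of cells outside the cluster were members against 0.0763% to 0.104% in the other 3 groups. A doublet score above the threshold was found in 0.704% of members inside, 30.8% of members outside and 13.2% of non-members outside. Without the cells called doublets 222 members remained, of which 141 (63.5%) lay in cluster 15. The mitochondrial share of counts had a median of 1.5% in members inside, 3.31% in members outside, 0.260% in other cells of cluster 15 and 2.70% in non-members outside. The part that depth and doublets play in membership outside the cluster was not tested. Split-pool barcodes can also repeat: 29 members had a barcode that occurs in more than 1 sublibrary, as 4894 cells in all did, and no 2 members shared one.

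Members were found in 39 of 46 tags. The highest mean share was in 3DFusi, at 1.00% ± 0.842 of a tag's cells (SD, n = 10 tags, 109 members), where tags ranged from 0% to 2.89% with a median of 0.675%. The highest 3DFusi tag, AcMor 4, alone held 36 members, and without it the 3DFusi mean was 0.794%. In 2DCocu the mean was 0.695% ± 0.40 (SD, n = 12, 71 members), with a range of 0.129% to 1.35% and a median of 0.681%. All 2DCocu tags lay within the range of the 3DFusi tags, of which 3 lay above every 2DCocu tag, and the order of the means depended on the rule and the depth: after thinning to 5000 counts the means were 0.445% in 2DCocu and 0.330% in 3DFusi, and with 3 of the 7 genes required 0.479% and 0.351%. In 2DProto2Fjo the 2 tags stood at 0.977% and 0.530% (18 members), in 2DProto3Wu at 0.324% and 1.04% (17 members) and in 2DProto4Nic at 0.147% and 0.598% (9 members). The lower means were those of 2DMono (0.256% ± 0.170, SD, n = 6, 16 members), 3DProto2Xia (0.163% ± 0.144, SD, n = 3, 4 members), 3DMono (0.124% ± 0.161, SD, n = 6, 12 members) and 3DProto1For (0.0914% ± 0.158, SD, n = 3, 3 members). Without AcMor 1 the 3DMono mean was 0.0613%, and all 3 members of 3DProto1For came from its tag 2. After thinning, 2DMono, at 0.112%, stood above 2DProto2Fjo (0.0766%), 2DProto4Nic (0.0752%) and 2DProto3Wu (0.0373%), and 3DMono, at 0.0542%, and 3DProto2Xia, at 0.0418%, stood above 2DProto3Wu. The thinned 2DProto3Wu mean came from its tag 2 alone (0.0746%), and that of 3DProto2Xia from its tag 1 alone (0.125%). Such low means rest on very few cells. The order of neighbouring arrangements does not exceed the spread between tags. No test between arrangements was planned, and the arrangements also differ in depth, with median totals per cell from 9105 in 3DProto2Xia to 21852 in 2DProto4Nic.

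**Figure D2:**
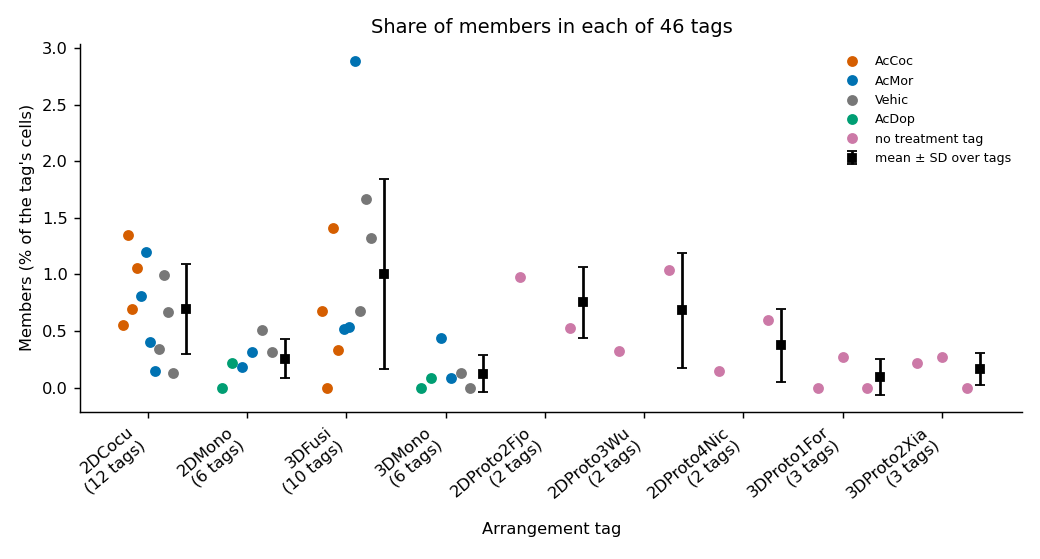
Share of cells that were members (percent, vertical axis) in each of 46 tags, grouped by arrangement and coloured by treatment tag, with the mean ± SD over tags as black squares and bars. 3DFusi spans 0% to 2.89%, and 2DCocu spans 0.129% to 1.35%.

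Placement in cluster 15 is given as counts of members pooled over tags. All 12 members of 3DMono, 53 of 71 in 2DCocu and 63 of 109 in 3DFusi lay in cluster 15, against 5 of 16 in 2DMono, 7 of 17 in 2DProto3Wu, 1 of 9 in 2DProto4Nic, 1 of 4 in 3DProto2Xia, 0 of 18 in 2DProto2Fjo and 0 of 3 in 3DProto1For. Members of cluster 15 came from all 12 tags in 2DCocu and 9 of 10 in 3DFusi, but single tags carried the counts elsewhere: AcMor 1 gave 8 of the 12 in 3DMono, Vehic 1 gave 4 of the 5 in 2DMono, and 1 tag gave all 7 in 2DProto3Wu. The cluster itself took a mean of 4.91% ± 3.46 of a tag's cells in 3DFusi (SD, n = 10), 4.46% ± 1.29 in 3DMono (SD, n = 6), 1.61% ± 0.717 in 2DCocu (SD, n = 12) and 0.292% ± 0.253 in 2DMono (SD, n = 6). In the other arrangements it took 3.19% ± 2.60 in 3DProto1For (SD, n = 3; 2.12% without tag 1), 2.82% and 2.84% in 2DProto2Fjo and 2DProto3Wu, 1.15% in 2DProto4Nic, and 1.06% ± 1.11 in 3DProto2Xia (SD, n = 3; 0.421% without tag 2). The tags ranged from 1.46% to 11.2% in 3DFusi, 2.64% to 6.28% in 3DMono and 0.290% to 2.77% in 2DCocu, so these ranges overlap. Members were 31.5% of the cluster's cells in 2DCocu (95% exact binomial interval 24.6% to 39.2%), 12.9% in 3DFusi (10.1% to 16.2%) and 3.70% in 3DMono (1.93% to 6.38%), and 0 of 69 in 2DProto2Fjo, which allows up to 5.21%. These intervals cover counting error only. The level of the rule's genes in cluster 15 followed no single order. LINC00326 stood at 151 cpm (counts scaled to the summed depth, a unit that shares its letters with the gene CPM) in 2DCocu, 166 in 3DFusi, 681 in 2DMono (13 cells), 121 in 2DProto3Wu, 12.6 in 3DMono and 1.07 in 2DProto2Fjo. LINC01707 stood at 2.38 in 2DCocu, 103 in 3DFusi, 135 in 3DMono and 322 in 2DProto2Fjo. DAPP1 stood at 108 in 2DCocu and 16.5 in 3DFusi, and LINC00862 at 202 and 12.8. LINC00326 and LINC01707 were thus in opposite orders between 2DCocu and 2DProto2Fjo.

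No treatment contrast of the member share passed an exact permutation test (2-sided, over tags, Benjamini-Hochberg over 6 contrasts), and none could. The smallest possible exact permutation p was 0.0286 for both 2DCocu contrasts and 3DFusi AcCoc. It was 0.1 for 3DFusi AcMor and 0.333 for both 2DMono contrasts. Over 6 contrasts these allow no adjusted p under 0.05, so the tests cannot decide if treatment changes the share. In 2DCocu the 4 AcCoc tags stood at 0.556%, 1.35%, 0.698% and 1.06%, and the 4 Vehic tags at 0.345%, 0.996%, 0.664% and 0.129%. Those groups overlap. The means were 0.914% ± 0.357 and 0.534% ± 0.379 (SD, n = 4 each; exact permutation p = 0.2, adjusted 0.5). AcMor averaged 0.636% ± 0.462 (SD, n = 4; exact permutation p = 0.743, adjusted 0.891). In 3DFusi the 4 AcCoc tags averaged 0.605% ± 0.602 and the 3 Vehic tags 1.22% ± 0.506 (SD; exact permutation p = 0.229, adjusted 0.5). The 3 AcMor tags stood at 0.517%, 0.539% and 2.89%, so that their mean of 1.32% ± 1.36 (SD, n = 3; exact permutation p = 1, adjusted 1) rested on AcMor 4, and without that tag the difference from Vehic was -0.694 percentage points in place of 0.0928. In 2DMono, AcDop (mean 0.108%) and AcMor (0.246%) lay below Vehic (0.413%) with no overlap, but on very few cells. The AcDop tags held 0 and 1 members, the AcMor tags 2 and 2, and the Vehic tags 10 and 1. AcMor 2 stood at 0.312% and Vehic 2 at 0.315%. Vehic 1, with 10 members, had a median total of 20732 counts. Moreover, 2 tags against 2 cannot give an exact permutation p under 0.333, which both contrasts reached (adjusted 0.5). In 3DMono the means were 0.0442% for AcDop, 0.262% for AcMor and 0.0650% for Vehic, and no test was made at these levels. The 3DMono AcMor mean rested on AcMor 1, at 0.435% with 8 members, while AcMor 2 stood at 0.0881% with 1 member. The share ranged from 0.382% to 0.839% over the 8 sublibraries, each of which is 1 library, so that no test between them is given.

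Genes outside the rule were compared between members and other cells of the same tag in the 2 tags that held at least 20 members, 3DFusi AcCoc 3 (21 members, 1472 other cells) and 3DFusi AcMor 4 (36 members, 1210 other cells). Of 9026 genes at 20 cpm or more on the higher side, 607 (6.73%) were higher in members in both tags by a mean of 1 or more on the log2(cpm + 5) scale, and 469 (5.2%) were lower. With the cells thinned to 5000 counts these numbers were 1629 and 1275, and without called doublets 1351 and 1088. Both alternatives use fewer counts, and their shares of the genes tested are not given. Their larger numbers therefore do not measure a larger difference. There is no test with 2 tags. Both tags hold members inside and outside cluster 15, 14 and 7 in AcCoc 3 and 19 and 17 in AcMor 4.

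The annotation calls 13 of the 25 highest genes long noncoding RNAs and 9 protein coding, where 6.67% and 90.4% of the 9026 genes were. MGC4859, a noncoding RNA, led, at 503 cpm in members of AcCoc 3 against 19.3 in its other cells, and at 159 against 28.9 in AcMor 4. ENSG00000257759, a noncoding RNA with no symbol in the files, was detected in 241 of 259 members. It stood at 715 cpm against 72.3 in AcCoc 3 and at 289 against 87.6 in AcMor 4. Both genes were higher in members of both tags, and the distance was larger in AcCoc 3.

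Among the protein-coding genes, CMYA5, a muscle cytoskeletal protein, stood at 344 cpm against 21.1 in AcCoc 3 and 61.1 against 15.3 in AcMor 4. NPR3, the clearance receptor for natriuretic peptides, stood at 102 against 11.8 and 32.5 against 7.04. NAPA, which takes part in vesicle fusion, stood at 164 against 23.6 and 141 against 48.7. SEM1, a small subunit of the proteasome, stood at 348 against 55.5 and 159 against 65.3. CCDC73, GJB7 (a gap junction connexin), TEX11 (a meiosis protein), CCDC125 and MGAM (an intestinal glucosidase) completed the 9. In the other cells of cluster 15, NAPA stood at 111 against 24.5 in non-members outside it of the same tags. CMYA5 stood there at 31.0 against 8.27, CCDC73 at 38.8 against 8.93 and GJB7 at 41.4 against 11.9. The pseudogene ABCC6P1 shares sequence with ABCC6, and BAALC-AS1 is antisense to another gene, so reads of both are uncertain.

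The 15 lowest genes were protein coding, as were 90.4% of the genes tested. COL9A1 and COL2A1, collagen chains of cartilage, stood at 5.6 and 15.6 cpm in members of AcCoc 3 against 344 and 459 in its other cells, and at 3.0 and 7.34 against 62.2 and 78.8 in AcMor 4. HAPLN1, EPYC, ACAN, COL15A1 and FN1, which also encode matrix proteins, were lower in both tags, FN1 at 105 against 798 and 137 against 421. TOP2A, CENPF and RRM2, which act in S phase and mitosis, were lower too. MKI67 had to be at 0 in members, and the part of that condition in the low levels of TOP2A, CENPF and RRM2 was not tested. In the other cells of cluster 15, CENPF stood at 28.5 against 136 in non-members outside it of the same tags.

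The higher genes were also higher in members of arrangements that had not chosen them. In 2DCocu and in 2DMono all 25 were above 0 on the log2 scale, with medians of 2.70 and 1.95, beside 57.9% and 58.7% of all genes tested there. In 2DProto3Wu 22 of 25 were above 0 with a median of 0.61, beside 56.5% of all genes, and in 2DProto2Fjo 15 of 25 with a median of 0.06, beside 48.6%. Of the 15 lowest genes, 10 were below 0 in 2DCocu (median -0.25, beside 42.1% of all genes) and 10 in 2DMono (median -0.33, beside 41.3%). In 2DProto2Fjo 11 were below 0 (median -0.44, beside 51.4% of all genes) and in 2DProto3Wu 12 (median -0.66, beside 43.5%). None of the 2DProto2Fjo members lay in cluster 15. Among members outside the cluster alone, 24 of 25 were above 0 in 2DCocu (median 1.54, beside 51.2% of all genes), 21 in 2DMono (median 1.48, beside 53.6%) and 14 in 2DProto3Wu (median 0.14, beside 51.5%). Members were also set against non-members outside cluster 15 of the same tags, leaving out the 2 tags that had chosen the genes, a comparison added after seeing the data. In the 109 members inside cluster 15 all 25 highest genes were above 0, beside 62.2% of all genes, and all 25 differed by 1 or more, beside 23.5%. In the 93 members outside 23 were above 0, beside 53.8% of all genes, and 10 differed by 1 or more, beside 0.688%. Of the 15 lowest genes, 13 were below 0 inside, beside 37.8% of all genes, and 14 outside, beside 46.2%.

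**Figure D3:**
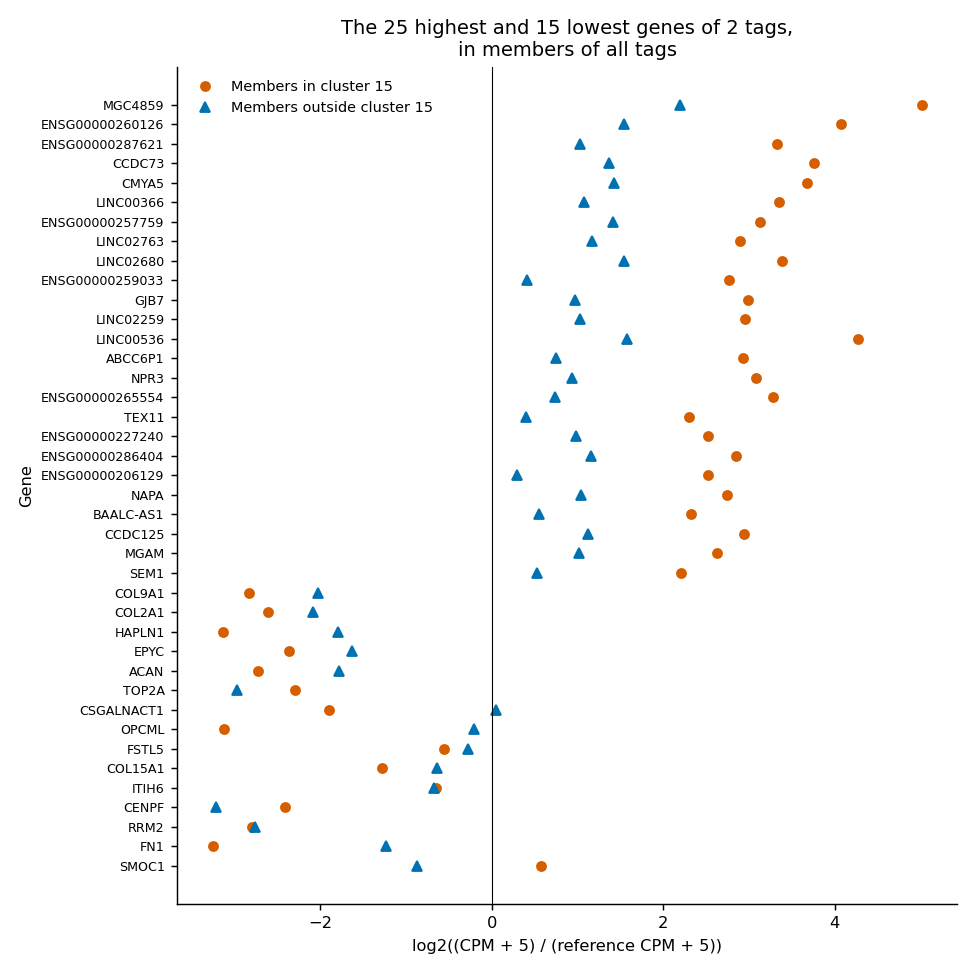
Difference of members from non-members outside cluster 15 of the same tags (horizontal axis, log2 of cpm + 5) for the 25 highest and 15 lowest genes, with members inside cluster 15 as circles and members outside as triangles. The 2 tags that chose the genes are included, and all 25 highest genes lie right of 0 in both groups and further right inside the cluster.

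Members inside cluster 15 shared higher levels of p53 target genes with the rest of that cluster. The list of 31 targets was written after the cluster's leading genes had been seen, so it describes and supports nothing. All 31 were above 0 in members inside cluster 15, with a median of 1.20, where 61.6% of the genes tested were above 0. Of the 21 that reached 20 cpm on the higher side, 15 were higher by 1 or more and none lower, and 23.5% of the 9714 genes at that level were higher by 1 or more and 13.7% lower. In the other cells of cluster 15 all 31 were above 0, with a median of 1.5, where 63.8% of genes were above 0. There 19 of the 23 that reached 20 cpm were higher by 1 or more, where 10.4% of genes were higher by 1 or more and 7.35% lower. In members outside cluster 15, 29 were above 0 and 2 below, none reached 1, and the median was 0.31, where 55.5% of genes were above 0. There 0.602% of genes were higher by 1 or more and 0.722% lower.

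MDM2 stood at 527 cpm in members inside cluster 15 against 116 in non-members outside it of the same tags. CDKN1A stood at 77.1 against 17.7. TNFRSF10B, a death receptor, stood at 284 against 54.2, ZMAT3, an RNA-binding protein, at 341 against 73.7 and POLH, a DNA polymerase that copies past damage, at 143 against 26.4. These 5 genes were all higher. PURPL, a noncoding RNA induced by p53, stood at 114 against 54.9, and FDXR, a mitochondrial reductase, at 27.3 against 4.40. In members outside the cluster MDM2 stood at 185 against 124, CDKN1A at 31.3 against 18.6 and PURPL at 132 against 77.3. MDM2 overlaps CPM, a gene of the rule, on the other strand.

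The summed level of the 31 targets, over all cells, was 2570 cpm in members inside cluster 15, 2845 in its other cells, 1129 in members outside and 757 in non-members outside. In each of the 22 tags with at least 20 cells in the cluster the sum was higher in the cluster's cells than in the tag's non-members outside it, by 2.23 to 5.57 times with a median of 3.55. Among arrangements the members inside cluster 15 stood at 2752 in 2DCocu, 2411 in 3DFusi, 2893 in 3DMono, 3211 in 2DProto3Wu (7 cells) and 1550 in 2DMono (5 cells). 2DProto2Fjo, where no member lay in the cluster, had the highest sum in the cluster's cells, 4566. 3DProto1For, where no member lay in the cluster either, had 2304 in the cluster's cells.

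**Figure D4:**
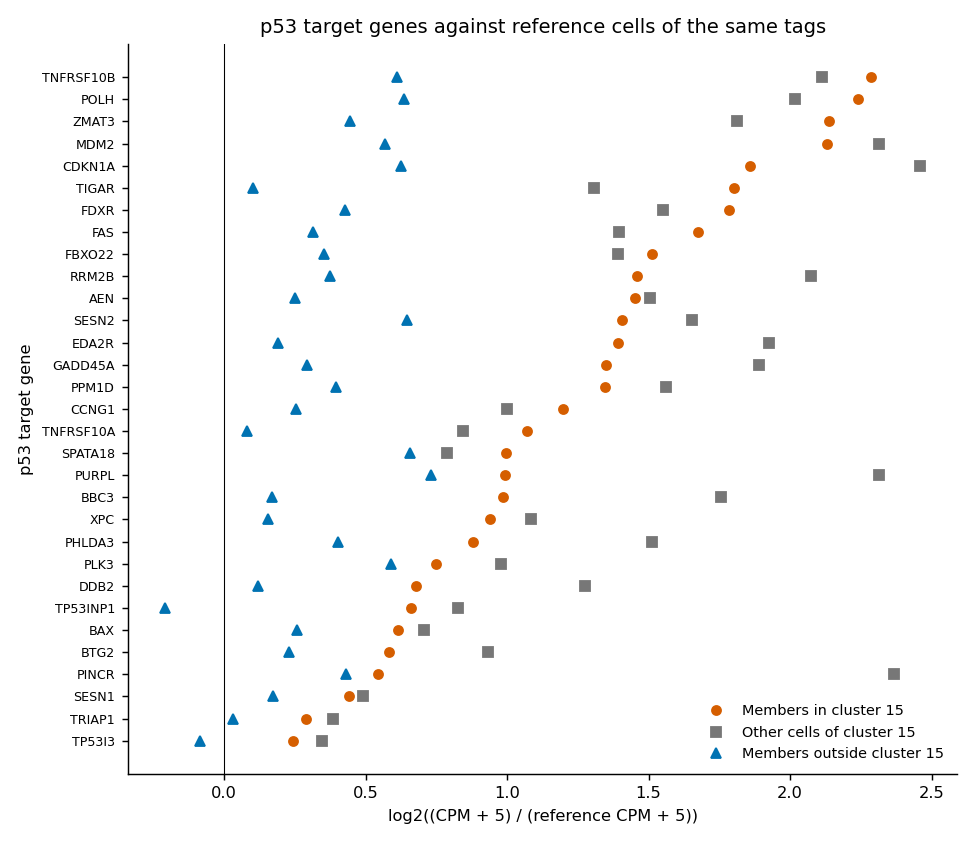
Difference from non-members outside cluster 15 of the same tags (horizontal axis, log2 of cpm + 5) for 31 p53 target genes, in members inside cluster 15 (circles), other cells of the cluster (squares) and members outside (triangles). Every circle and every square lies right of 0, and no triangle reaches 1.

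Other genes widely detected in members inside cluster 15 also stood apart from non-members outside it. Among genes found in at least 50% of these members, NFE2L3, a transcription factor of the cap-n-collar family, stood at 188 cpm against 14.1. RPL37A, a ribosomal protein, was at 374 against 47.4 and was found in 88.0% of these members against 43.6% of non-members outside. IL12RB2, a cytokine receptor chain, was at 123 against 14.9 and H2AC6, a histone, at 78.6 against 5.9. In the cluster's other cells NFE2L3 stood at 65.8 against 17.6, RPL37A at 147 against 57.3 and IL12RB2 at 53.5 against 15.8. H2AC6 stood there at 54.4 against 5.70, with 26.2% of its counts from 1 cell. Among the lowest of them, NRXN3, a presynaptic adhesion molecule, stood at 276 against 2488, RBFOX1, a neuronal splicing factor, at 214 against 1482, and CNTNAP2, an axonal adhesion molecule, at 431 against 1969. NRXN3, RBFOX1 and CNTNAP2 are each longer than 300 kb. The lowest also included PTPRZ1, a radial glia marker, at 119 against 642, and PDE4D at 172 against 903. In the cluster's other cells NRXN3 stood at 328 against 2705, RBFOX1 at 299 against 1291 and CNTNAP2 at 964 against 1683.

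The difference varied with gene length. For members inside cluster 15 the median difference was 0.92 for genes under 10 kb, 0.81 for 10 to 30 kb, 0.48 for 30 to 100 kb, -0.22 for 100 to 300 kb and -1.07 for genes over 300 kb. In the other cells of the cluster it went from 0.67 to -0.70 over the same bins, and in members outside from 0.01 to -0.10. Genes over 300 kb gave a median of 11.6% of the counts of a member inside the cluster, 15.1% in its other cells, 21.7% in a member outside and 26.0% in a non-member outside. In 2DCocu these medians were 14.4%, 14.2%, 22.0% and 27.1%, and in 3DFusi 9.73%, 11.7%, 19.2% and 24.7%. The mitochondrial share did not move in the same way: its median in members inside the cluster was 4.31% in 2DCocu, where non-members outside had 2.22%, and 0.546% in 3DFusi, where they had 3.25%. The part of RNA quality in the difference by length was not tested.

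**Figure D5:**
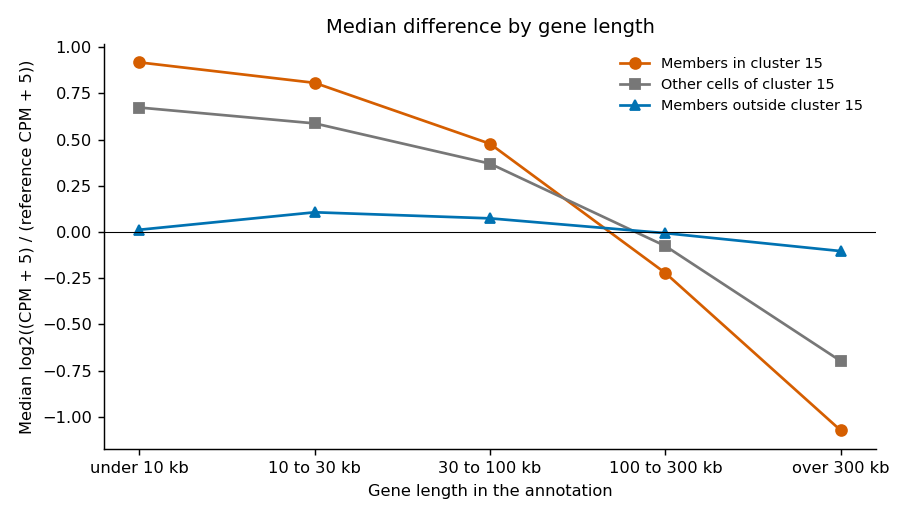
Median difference from non-members outside cluster 15 of the same tags (vertical axis, log2 of cpm + 5) by gene length in the annotation (horizontal axis), for members inside cluster 15, other cells of the cluster and members outside. The line for members inside falls from 0.92 to -1.07, and the line for members outside stays between -0.10 and 0.11.

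Of 29 lists of cell type or region markers, 17 had a summed level in members inside cluster 15 between 0.5 and 2 times that of non-members outside it, 8 were lower and 4 higher. Neuronal markers, among the 17, summed to 1008 cpm against 1853, with SYT1 at 548 against 794. Of the 10 neuronal markers, 5 were lower by 1 or more on the log2 scale and 1 higher, with a median of -1.19. Among the 8 lower lists, radial glia markers summed to 436 against 1419 and astrocyte markers to 135 against 366. Mesenchymal markers summed to 165 against 1450, with COL1A1 at 50.1 against 604. Excitatory neuron markers stood at 91.0 against 298, GABAergic neuron markers at 56.1 against 173 and cycling markers at 82.5 against 246. Of the 3 cycling markers that reached 20 cpm, 2 were lower by 1 or more and PCNA was higher, at 23.1 against 8.50. The rule on MKI67 touches the cycling list. Oligodendrocyte lineage markers stood at 21.3 against 57.5 and primordial germ cell markers at 18.6 against 38.2. The 4 higher lists were all at low levels: microglia or macrophage at 32.8 against 15.5 with 3 of 7 genes at 0, lymphocyte at 10.3 against 3.76 with 4 of 7 at 0, epithelial at 21.02 against 8.77 with 3 of 8 at 0, and pluripotent at 8.30 against 3.56 with 3 of 7 at 0. In the other cells of the cluster mesenchymal markers summed to 107 against 1203 and epithelial markers to 61.3 against 9.41.

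In members outside the cluster 25 of 29 lists lay between 0.5 and 2 times, and neuronal markers summed to 1664 against 1893. The cycling list was lower there, at 32.5 against 235, which the rule on MKI67 touches. The muscle list was higher, at 336 against 166, of which TTN, the giant sarcomere protein, gave 293 against 139. The choroid plexus list stood at 122 against 66.9, with both of its genes that reached 20 cpm higher by 1 or more: TTR, the thyroid hormone carrier transthyretin, at 63.2 against 26.6 and in 27 of the 117 members, and CLIC6, a chloride channel protein, at 32.1 against 10.6. A single cell gave 30.8% of the TTR counts and 31.5% of the CLIC6 counts. The endoderm list, at 70.5 against 35.4, also holds TTR. The floor plate list stood at 403 against 259, with 1 of 4 genes higher by 1 or more, SPON1, an extracellular adhesion protein, at 151 against 61.8, of which 1 cell gave 51.0% of the counts. Of all genes tested there, 0.602% were higher by 1 or more. The part of cells of these types in membership outside the cluster was not tested. The microglia or macrophage list, at 29.1 against 14.1, and the lymphocyte list, at 14.3 against 3.22, share PTPRC, a leukocyte phosphatase, at 13.4 against 2.58.

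The lists fixed around the rule's genes and pathways are read beside all genes tested in members inside cluster 15, of which 23.5% were higher by 1 or more and 13.7% lower, with a median of 0.34. The rule's own genes, DAPP1 and CPM among them, were left out of these lists. Phosphoinositide signalling genes around DAPP1 did not move together inside cluster 15. Of the 19 found, 14 reached 20 cpm, 2 were higher by 1 or more and 2 lower, with a median of -0.13. Peptidases around CPM had 3 of 12 genes at that level, none higher or lower by 1, with a median of -0.07. Extracellular matrix genes of radial glia and glia had 13 of 16 lower by 1 or more and none higher, with a median of -1.44. SHH signalling had 4 of 6 lower, with a median of -2.0. WNT signalling had 6 of 12 lower and 1 higher (median -0.996). BMP and TGF-beta signalling had 7 of 14 lower and 1 higher (median -0.894). Immediate early genes had 4 of 8 lower and none higher (median -0.943). FGF signalling had 4 of 9 lower and 1 higher (median -0.105). The list around THORLNC had 2 of 7 lower and none higher. Notch signalling had none of 5 either way, and cell cycle genes 3 of 8 each way. The only dopamine, opioid or monoamine gene at 20 cpm was higher. Genes of hypoxia, glycolysis and stress had 5 of 12 higher and none lower, with a median of 0.72, among them PGK1, a glycolytic enzyme, at 155 cpm against 69.0 and ATF4, a transcription factor of the stress response, at 65.7 against 28.1. In the other cells of the cluster, 10.4% of all genes were higher by 1 or more and 7.35% lower. There 12 of 16 matrix genes were lower, with a median of -1.37, and 4 of 7 SHH signalling genes, with a median of -1.01. WNT signalling had 4 of 13 lower and BMP and TGF-beta signalling 3 of 13, with none higher. Immediate early genes had 3 of 8 lower and 1 higher, and FGF signalling 2 of 8 lower and 1 higher. Of the genes of hypoxia, glycolysis and stress, 7 of 14 were higher, with a median of 1.01.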

How the data were processed

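The authors deposited 1 matrix of estimated counts for 60286 genes in 43693 cells. Only 54.3% of its entries are whole. The submitters' processing notes name hg38, Salmon 1.7.0, alevin and Seurat 4.1.1; no source used here gives the cell filters. The lowest cell held 1006 genes and the highest mitochondrial share was 10.0%.

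Counts scaled to depth (cpm) were computed from summed cells (pseudocount 5), with the rule applied to entries as deposited. Cells were clustered on 2000 variable genes without the rule's genes (30 components, 20 neighbours, leidenalg 0.10.2, resolution 0.8), and scored for doublets per sublibrary against simulated doublets (5648 cells, 12.9%, above 0.689). Doublets stayed in except in an alternative. Named genes are the 25 highest and 15 lowest by mean difference over tags with at least 20 members, of 1 sign in each, beside the fixed lists; genes widely detected in cluster 15 and the p53 list were chosen after values were seen. The calculation of the gene difference between members and other cells was checked on simulated counts with known changes. Shares were compared by exact permutation (scipy 1.17.1). Tests of genes between treatments or arrangements, planned for tags with 20 members, were not made, since 2 tags of 1 arrangement had them. Members and lists were chosen with earlier results of these data known. Same-numbered 3DFusi tags deviated together in each pair (correlation of deviations from the group means 0.202 to 0.694), while those of 2DCocu did not (-0.433 to 0.140).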

Additional observations from a re-analysis of the deposited data

How the results depend on the processing

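The direction of the 6 treatment differences was kept in 2DCocu AcCoc, 3DFusi AcCoc and 2DMono AcDop under each alternative run. None of 85 alternative values with a p passed (lowest adjusted exact permutation p 0.257). With these numbers of tags the 6 main contrasts allow no adjusted p under 0.05, so that outcome says nothing about stability. In percentage points, 2DCocu AcMor turned to -0.0193 with 3 of 7 genes required and to -0.0624 with only members of cluster 15, a choice made after seeing the data. 3DFusi AcMor turned to -0.236 with 1 of 7 genes, and 2DMono AcMor to 0.128 after thinning. The cause was not tested. Leaving out 1 tag gave 0.237 to 0.535 for 2DCocu AcCoc, -0.0836 to 0.266 for 2DCocu AcMor (negative without AcMor 2 or Vehic 4, at -0.0836 and -0.0321), -0.893 to -0.395 for 3DFusi AcCoc, -0.694 to 0.492 for 3DFusi AcMor (negative without AcMor 4 or Vehic 1, at -0.694 and -0.182), -0.413 to -0.197 for 2DMono AcDop and -0.265 to -0.0695 for 2DMono AcMor. With replicate numbers as a block (p unadjusted) the 3DFusi differences were -0.416 (exact p = 0.5, 3 pairs) and 0.0928 (exact p = 1), the 2DCocu ones 0.381 (exact p = 0.125) and 0.103 (exact p = 0.625), and no blocked contrast could pass: the smallest exact p is 0.125 with 4 pairs, which 2DCocu AcCoc reached, 0.25 with 3 and 0.5 with 2.

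With 1 of 7 genes required the mean member share was 0.614% in 2DMono, 1.99% in 3DFusi, 0.314% in 3DMono, 1.43% in 2DProto2Fjo, 1.36% in 2DProto3Wu, 0.815% in 2DProto4Nic and 0.341% in 3DProto2Xia. 2DProto2Fjo fell to 0.222% with 3 of 7 genes and to 0.0766% after thinning, and 2DProto3Wu to 0.0373% after thinning. The means without 1 tag ran from 0.636% to 0.746% (2DCocu), 0.205% to 0.307% (2DMono), 0.794% to 1.11% (3DFusi) and 0.0613% to 0.148% in 3DMono, 0.530% to 0.977% in 2DProto2Fjo, 0.324% to 1.04% in 2DProto3Wu, 0.147% to 0.598% in 2DProto4Nic, 0% to 0.137% in 3DProto1For and 0.107% to 0.244% in 3DProto2Xia. Genes called higher and lower in members numbered 1629 and 1275 after thinning, and 1351 and 1088 without called doublets, an alternative added after seeing the data. These numbers rest on fewer counts and have no share of the genes tested beside them, so they do not measure a larger difference. All 40 named genes kept their sign after thinning and with a pseudocount of 1. At resolutions 0.4 and 1.5 the cluster with most members held 54.1% and 52.9% of them. Alternatives of the gene tests between treatments or arrangements were not run, since those tests were not made, and with at least 10 members no arrangement had 2 treatment groups of 2 tags.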
